A study of Mus musculus with 6 samples.

Results

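The genes described here are 9 genes of homologous recombination and the replication checkpoint, Brca1, Brca2, Bard1, Rad54l, Blm, Exo1, Fanca, Fancd2 and Chek1, in the spleens of garlic-fed and control mice. They were found by name among the probe sets of the array that are annotated to a single gene, and all 9 were found, out of 18193 genes named in this way. Every probe set of each gene was kept, which gave 25 probe sets, from 1 for Brca2, Bard1 and Blm to 5 for Chek1. Male C57BL/6J mice, 8 weeks old at the start, were fed a casein and cornstarch diet with 4% cellulose (control mice, n = 3) or with 4% lyophilized raw garlic powder (garlic-fed mice, n = 3), and whole spleens were collected at week 15 of feeding. RNA of each spleen was hybridized to its own Affymetrix array, with no pooling of animals, so that the 2 groups share everything in the labels but the supplement. The methods of the study name the substrain C57BL/6JNarl.

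Homologous recombination repairs a broken or stalled replication fork by copying the intact sister chromatid, and it works mainly in S and G2 phase, when that sister is present. Broken ends are first trimmed to single strands by nucleases and helicases such as Exo1 and Blm. Brca1, with its partner Bard1, promotes this trimming and works with Brca2 on the single strand, and Rad54l then assists strand exchange. The Fanconi anemia proteins, among them Fanca and Fancd2, prepare crosslinked DNA for the same repair, and the kinase Chek1 holds back cell division while replication is unfinished. Because dividing cells need these proteins, their mRNAs are typically abundant in tissues with many cycling cells.

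The promoters of Brca1 and Rad54l are shown because these were the 2 genes among the 9 with an unadjusted p under 0.05. The mouse RefSeq table (GRCm38.p6) held the region from 250 bases before to 50 bases after the transcription start for 7 of the 9 genes. Exo1 and Fancd2 were not found in it. The 140 bases before the start of each gene are printed 5′ to 3′ on the strand of the gene, and the capitals mark the CCAAT box, a motif bound by the factor NF-Y. Both genes lie on the minus strand, Brca1 with this stretch at chr11:101551956-101552095 and Rad54l at chr4:116123691-116123830. The first of the 2 starts listed for Rad54l was used, and its annotated gene reaches a few bases into the stretch.
Brca1: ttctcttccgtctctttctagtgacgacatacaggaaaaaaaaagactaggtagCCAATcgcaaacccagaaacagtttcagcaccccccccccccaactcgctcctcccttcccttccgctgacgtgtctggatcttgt
Rad54l: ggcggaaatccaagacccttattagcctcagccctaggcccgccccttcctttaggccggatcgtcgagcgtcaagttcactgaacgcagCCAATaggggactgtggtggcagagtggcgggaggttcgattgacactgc
The letters CCAAT were found on either strand in the promoters of 4 of the 7 genes, Brca1, Rad54l, Blm and Fanca, and in 37.4% of all 32851 promoter windows of the table. Matches to the E2F motif, searched on both strands as TTTCGCGC, TTTGGCGC, TTTCCCGC or TTTGCCGC, were found in 2 of the 7 genes, Brca2 and Bard1, and in 2.26% of all windows. E2F factors switch on genes at the start of S phase. The cell cycle homology region, searched as TTTGAA or TTCGAA, was found in 1 of the 7, Bard1, and in 19.2% of all windows. Such matches describe the letters of these windows only. No motif of the 3 was found for Chek1.

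The signals are the MAS5 values deposited for each probe set, a group of short oligonucleotides that together read the mRNA of one gene, on a linear scale on which each array has the same trimmed mean. Median signals lay between 127.9 and 132.2 in control spleens and between 119.7 and 128.8 in garlic spleens. The ratio of the tail end to the front end of Gapdh mRNA, a measure of RNA integrity, was 0.801 to 0.881 in control spleens. It was 0.978, 0.999 and 0.769 in garlic-fed mice 1, 2 and 3. The spleen was recognizable by its markers on all arrays, with Ms4a1 of B cells at 12414.5 to 14111.9, Cd3d of T cells at 4472.6 to 5642.2 and Vcam1 of red pulp macrophages at 12485.1 to 14844.7. Pancreatic genes, which do not belong in spleen, had a summed signal of 17082 to 130684 in the control group and 2070 to 33813 in the garlic group. All 10 tested were lower with garlic at an unadjusted p under 0.05 and 0 passed the adjusted threshold in limma. The part of this pancreatic RNA in the results was not tested. Leaving out the array with the most of it in each group, control mouse 1 and garlic-fed mouse 2, cannot test it, because the groups stay unequal. Prss2 was then still at 1632.5 and 6393.2 in control spleens and at 126.7 and 145.8 in garlic spleens.

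Of the 9 genes, 8 were bright enough to be tested, and none of these passed the adjusted threshold in either direction. Of the 8, 7 had higher mean signals in garlic spleens, by 1.11-fold to 1.58-fold, and Fanca had a fold of 0.976. Among all 12262 genes tested, 44.2% had a positive log2 fold change. Brca1 stood at the upper end with a 1.58-fold difference and Rad54l followed with a 1.38-fold difference, and in both genes the groups did not overlap. In limma, a test that pools the spread between mice over all probe sets, 0 of 8 genes and 0 of 16 probe sets had an adjusted p under 0.05 (Benjamini-Hochberg over 27022 probe sets), while 0.351% of all 12262 genes and 0.237% of all probe sets did. At an unadjusted p under 0.05, 2 of the 8 genes were higher and 0 were lower, beside 6.89% of all genes higher, and 4 of 16 probe sets were higher and 0 lower, beside 5.58% of all probe sets higher. The gene-by-gene test of the study's methods, run on log2 signals, gave 2 higher genes and 2 higher probe sets at an unadjusted p under 0.05, and 0 of each after adjustment. By the criterion of the study, a fold above 1.8 with an unadjusted p under 0.05, 0 of the 16 probe sets were higher, beside 0.921% of all probe sets. The groups did not overlap, with garlic-fed mice above, in 3 of 8 genes and 6 of 16 probe sets, beside 9.13% of all genes and 7.52% of all probe sets. These counts moved with single mice: without garlic-fed mouse 1, 4 genes and 7 probe sets had an unadjusted p under 0.05 with higher signals, and without control mouse 2 or garlic-fed mouse 3 the probe sets were 2. Without the array with the most pancreatic RNA of each group, 1 gene and 2 probe sets were left, in a fit that also had fewer mice. In whole spleen, a difference in the number of cells of a type and one in RNA per cell cannot be told apart.

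**Figure D1:**
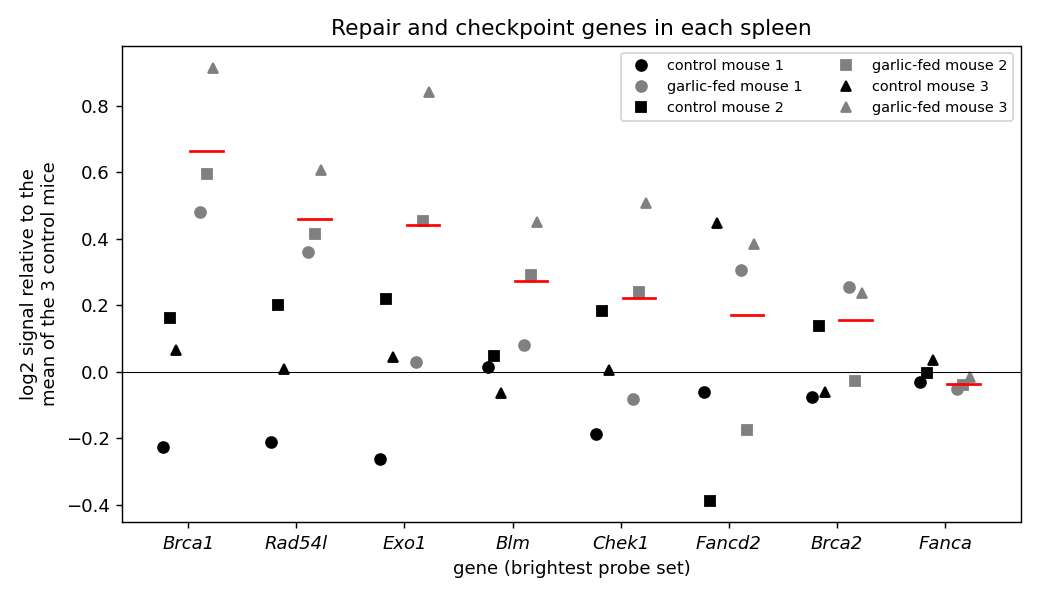
Log2 signal of the brightest probe set of each of the 8 tested genes in each mouse, relative to the mean of the 3 control mice; black marks are cellulose, gray marks garlic, and red lines the garlic group's means. The groups are apart in Brca1, Rad54l and Blm, and garlic-fed mouse 3 is the highest of the garlic-fed mice in 7 of the 8 genes.

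Brca1, the ubiquitin ligase subunit that steers breaks into recombination, had signals of 470.5, 615.8 and 576.6 in control spleens and 769.2, 832.1 and 1038.8 in garlic spleens with its brightest probe set. All garlic-fed mice were thus above the highest control mouse. The means were 554 ± 75.2 (SD, n = 3) and 880 ± 141 (SD, n = 3), a log2 fold change of 0.66 (standard error, SE, 0.15, 95% interval 0.32 to 1.01, adjusted p = 0.131 by limma). The other 3 probe sets of Brca1 gave log2 fold changes of 0.64, 0.60 and 0.59, and their intervals overlapped that of the first. In 2 of these 3 the groups did not overlap either. The dimmest, with signals of 47.7, 67.9 and 112.1 in control spleens and 117.4, 89 and 121.2 in garlic spleens, had garlic-fed mouse 2 below the highest control mouse. The 4 probe sets read the same RNA and are not replicates of each other.

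Bard1 forms a stable pair with Brca1, but its single probe set was dim. Its signals were 4.1, 12.2 and 36.6 in control spleens and 59.9, 55.9 and 15.4 in garlic spleens, and the groups overlapped. In 3 of 6 mice the signal was under 23.5, the floor to which low signals were raised, and the mean was under the filter for testing, so no fold is given. Brca2, which acts on the trimmed single strand after Brca1, had signals of 301.6, 350 and 304.9 in control spleens and 379.8, 312.1 and 375.2 in garlic spleens. Of the garlic-fed mice, mouse 2 lay among the control mice. The log2 fold change of Brca2 was 0.16 (SE 0.15, 95% interval -0.19 to 0.50, adjusted p = 0.778 by limma), an interval that holds no difference as well as a level up to 1.41-fold higher.

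Rad54l encodes a motor protein that works on DNA during strand exchange. Its brightest probe set had signals of 428.1, 569.2 and 498.8 in control spleens and 636.1, 660.5 and 755 in garlic spleens, with no overlap. The log2 fold change was 0.46 (SE 0.14, 95% interval 0.14 to 0.78, adjusted p = 0.257 by limma). The 2 dimmer tested probe sets gave 0.36, with the groups apart, and 0.30, with the groups overlapping. The former carries the suffix of probe sets that can bind related sequences of other genes. A further probe set was under the filter, with signals of 14.3 to 56.6 in control spleens and 45.8 to 70.8 in garlic spleens.

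Exo1 and Blm act before strand exchange. Exo1, a nuclease that trims one strand of a broken end, had signals of 184.4, 257 and 227.7 in control spleens and 225.6, 302.9 and 395.7 in garlic spleens. Garlic-fed mouse 1 was below control mice 2 and 3, so the groups overlapped. The log2 fold change was 0.44 (SE 0.23, 95% interval -0.06 to 0.95, adjusted p = 0.521 by limma), and a second probe set gave 0.45. Its last probe set was under the filter, with 4 of 6 signals under the floor. Without garlic-fed mouse 3 the value for Exo1 was 0.24, and without garlic-fed mouse 1 it was 0.65. Blm, the helicase whose human counterpart is lost in Bloom syndrome, had signals of 538.1, 550.2 and 509.3 in control spleens and 562.4, 650.9 and 727 in garlic spleens. The groups did not overlap, although the lowest garlic-fed mouse was close to the highest control mouse. The log2 fold change of Blm was 0.27 (SE 0.13, 95% interval -0.02 to 0.57, adjusted p = 0.495 by limma). Without garlic-fed mouse 3 it was 0.18.

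The 2 Fanconi anemia genes had overlapping groups. Fanca, a subunit of the complex that attaches ubiquitin to Fancd2, had signals of 573, 583.8 and 600.6 in control spleens and 565.1, 569.3 and 579.8 in garlic spleens. These 6 values lay closer together than those of the brightest probe set of any other of the 9 genes. The log2 fold change of Fanca was -0.04 (SE 0.11, 95% interval -0.29 to 0.22, adjusted p = 0.945 by limma), and it was 0.04 when each array was centred on its median, so no direction can be given. Fancd2, which marks the crosslinked site once it carries ubiquitin, had signals of 241, 192.1 and 342.7 in control spleens and 310.8, 222.5 and 328.1 in garlic spleens. All garlic-fed mice lay within the range of the control mice. Its log2 fold change was 0.17 (SE 0.24, 95% interval -0.36 to 0.70, adjusted p = 0.855 by limma) and was -0.02 without control mouse 2. A second tested probe set of Fancd2 gave 0.32, while a second probe set of Fanca, at 64.3 to 93.7 in control spleens and 11.2 to 119.2 in garlic spleens, and 2 of Fancd2, at 46.8 to 73.3 and 24.4 to 72.9, were under the filter.

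Chek1, the effector kinase of the replication checkpoint, was read by 5 probe sets, of which 2 were bright enough to be tested. The brightest had signals of 338.5, 437 and 386.3 in control spleens and 364.3, 455.2 and 547.6 in garlic spleens, and the groups overlapped. Its log2 fold change was 0.22 (SE 0.18, 95% interval -0.17 to 0.62, adjusted p = 0.712 by limma), which was 0.08 without garlic-fed mouse 3, 0.13 without control mouse 1 and 0.37 without garlic-fed mouse 1. The second tested probe set had a log2 fold change of 0.39 (SE 0.29, adjusted p = 0.684). The other 3 were under the filter on dim probe sets. One of these had signals of 16, 40.7 and 40.7 in control spleens and 79.8, 76.7 and 82.3 in garlic spleens, with the groups apart. Another had the groups apart in the opposite direction, with 32.8, 26.3 and 37.5 in control spleens and 4.9, 22.4 and 22.4 in garlic spleens, the latter all under the floor. In the fit with no filter, the former had a log2 fold change of 1.23 (SE 0.25, adjusted p = 0.341 by limma). The latter had one of -0.44 (SE 0.14, adjusted p = 0.477 by limma). The former had 1 of 6 signals raised to the floor and the latter 3, so both sizes depend on the floor. The dimmest had signals of 33.5, 18.8 and 16.7 in control spleens and 23.9, 5.2 and 2.6 in garlic spleens, which overlapped.

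**Figure D2:**
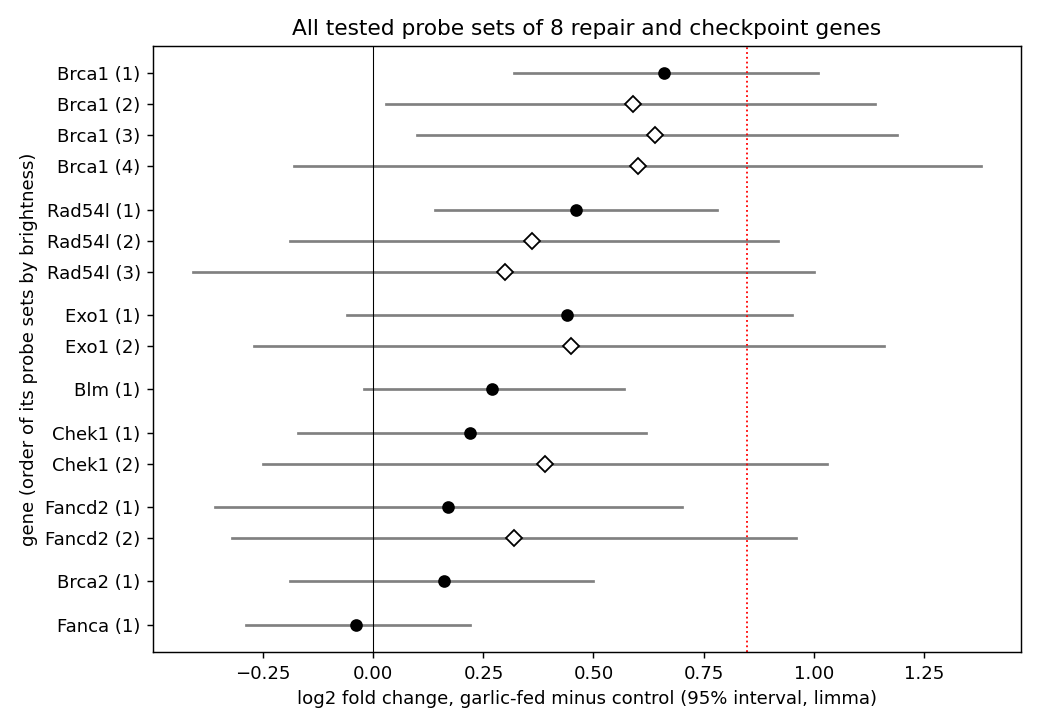
Log2 fold change of garlic-fed minus control mice with its 95% interval from limma for each of the 16 tested probe sets, numbered within a gene from the brightest; filled circles are the brightest probe set of a gene, open diamonds the others, and the red dotted line marks 1.8-fold. All 4 probe sets of Brca1 lie between 0.59 and 0.66, and 15 of the 16 values, several of them from the same gene, are above 0.

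Brca1, chosen here because it had the largest log2 fold change of the 8, was set against each of the 7 others within each array, relative to the control mice. The resulting gap between the log2 fold changes ran from 0.20 for Rad54l to 0.70 for Fanca. For Fanca it was 0.53, 0.64 and 0.93 with garlic and -0.20, 0.17 and 0.03 with cellulose, and for Brca2 it was 0.23, 0.62 and 0.68 against -0.15, 0.02 and 0.13. In 6 of the 7 pairs, the exception being Fancd2, the groups did not overlap. All 7 pairs share the signals of Brca1, whose groups were already apart, so this count is not separate support for a difference between the genes. Because Brca1 was picked by its value, these gaps are given with no test.

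The 8 genes had a median log2 fold change of 0.25, and the median over all 12262 genes tested was -0.03. As a mean over the 8 genes relative to the control mice, the log2 signal was -0.13, 0.07 and 0.06 in control spleens and 0.17, 0.22 and 0.49 in garlic spleens. Garlic-fed mouse 3 stood highest and the other 2 lay just above the control mice. The mean of 16 genes of S phase, such as subunits of the replicative helicase and enzymes of nucleotide supply, ordered the garlic-fed mice in the same way, with 0.24, 0.42 and 0.64, and lay between -0.05 and 0.08 in control mice. The mean of 11 erythroid genes was 0.73, 0.87 and 1.29 in garlic spleens and -0.29, 0.06 and 0.24 in control mice.

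**Figure D3:**
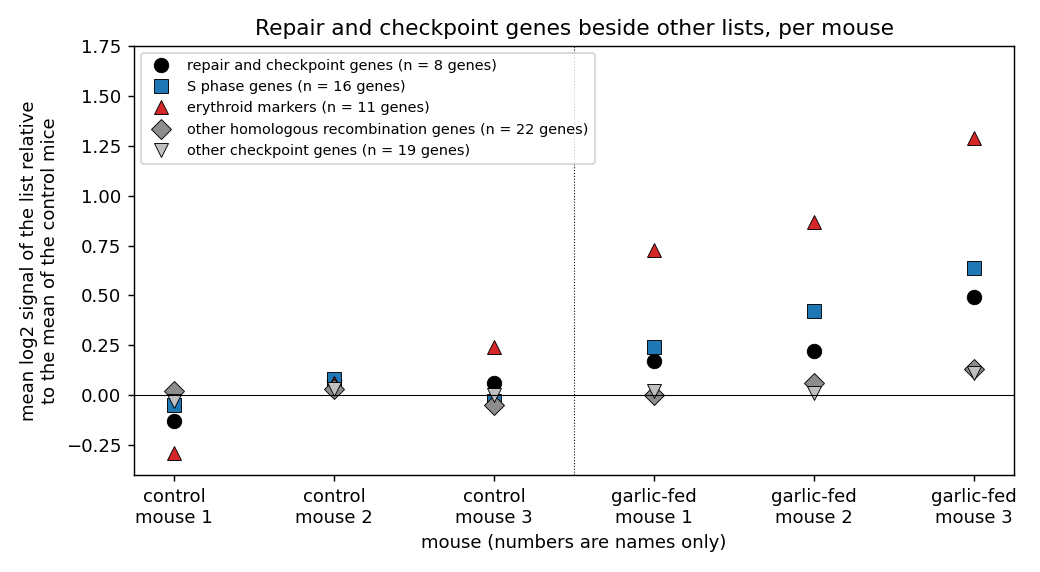
Mean log2 signal of 5 gene lists in each mouse, relative to the mean of the control mice; black circles are the 8 repair and checkpoint genes tested, blue squares S phase genes, red triangles erythroid markers, and gray symbols other homologous recombination and other checkpoint genes. In garlic-fed mice the repair and checkpoint genes lie between 0.17 and 0.49, below the S phase genes at 0.24 to 0.64 and above the other homologous recombination genes.

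Of 11 erythroid markers tested, 4 rose past the adjusted threshold and 0 fell, with a median log2 fold change of 0.99 and a summed signal of 38905 to 49472 in control spleens and 62404 to 86863 in garlic spleens. Kel of the red cell membrane rose by 1.40, Ank1, the erythroid ankyrin, by 1.37 and the erythroid transcription factor Nfe2 by 1.37 on the log2 scale (adjusted p = 0.0243, 0.0137 and 0.0375 by limma). All 5 markers of granulocyte precursors had positive log2 fold changes, with a median of 0.92, of which 3 had an unadjusted p under 0.05 and 0 passed. Their summed signal was 751 to 1180 in the control group and 1743 to 1901 in the garlic group. The study already names Kel and Ank1, and Mpo and Prtn3 of the granulocyte precursor markers, among the higher genes of these arrays. Their direction is thus not independent evidence. Markers of B cells had a median of -0.15 (7 tested), of germinal center B cells, which divide rapidly, -0.40 (5 tested), and of T cells -0.21 (7 tested), with 0 past the adjusted threshold in limma in each list, and lower signals with an unadjusted p under 0.05 for 2, 2 and 0 genes. Among all 12262 genes tested, 765 were lower at an unadjusted p under 0.05. The 8 red pulp macrophage markers had a median of 0.13, and the 4 fat tissue markers tested one of 0.81, with 0 past the adjusted threshold in limma and 3 and 1 higher at an unadjusted p under 0.05. The part of cell numbers in the signals of Brca1 and the others was not tested.

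Of 22 other homologous recombination genes tested, 0 passed the adjusted threshold in limma, unadjusted p-values under 0.05 were found for 1 higher and 1 lower gene, and the median log2 fold change was 0.08. Rpa1 and Rpa3, the brightest of them, which encode subunits of the protein that coats single-stranded DNA, had log2 fold changes of 0.12 (SE 0.08, adjusted p = 0.631) and 0.10 (SE 0.12, adjusted p = 0.836).

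Of 11 other Fanconi anemia genes tested, 0 passed and 0 had an unadjusted p under 0.05 in limma, with a median log2 fold change of 0.03. Usp1, which removes ubiquitin from Fancd2 and is the brightest of this list, had a log2 fold change of 0.02 (SE 0.12, adjusted p = 0.968). Fancl, a ubiquitin ligase of the Fanconi complex, had one of 0.03 (SE 0.11, adjusted p = 0.952). Of 19 other checkpoint genes, 0 passed, an unadjusted p under 0.05 was found for 2, both higher, and the median was 0.02. H2ax, the histone that is phosphorylated around a break, had signals of 2840.7, 3075.7 and 3577 in control spleens and 3691.8, 4027.5 and 4268.4 in garlic spleens, with no overlap and a log2 fold change of 0.34 (SE 0.11, adjusted p = 0.251). Tipin, which steadies the replication fork, had one of 0.04 (SE 0.12, adjusted p = 0.943). The other of the 2 was Cdc25b, which encodes a phosphatase that promotes mitosis, at 0.47 (adjusted p = 0.174), named after its value was seen. The kinase Atr, which activates Chek1, was at -0.26 on the log2 scale (adjusted p = 0.593), and Topbp1, the activator of Atr, at -0.04 (adjusted p = 0.932), 2 genes chosen for their place in the pathway after the values were seen.

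Genes of end joining, the repair route that needs no sister chromatid, had a median log2 fold change of -0.04 (8 tested, 0 past the adjusted threshold in limma, 1 lower gene and 0 higher with an unadjusted p under 0.05). Xrcc6 and Prkdc, the brightest of them, which encode parts of the kinase complex that holds broken ends, had log2 fold changes of 0.11 (SE 0.12, adjusted p = 0.786) and 0.07 (SE 0.12, adjusted p = 0.872), the 2 positive values of the list. The lower gene was Xrcc4, a partner of the ligase that seals the ends, named after its values were seen. Its signals were 346.3, 424 and 379.8 in control spleens and 284.4, 257.2 and 286.8 in garlic spleens, with no overlap and a log2 fold change of -0.47 (SE 0.15, adjusted p = 0.267 by limma). Targets of p53, which respond to DNA damage, had a median of 0.03 (13 tested, 0 past the adjusted threshold, 1 higher gene and 1 lower with an unadjusted p under 0.05). Of these, Trp53inp1 had signals of 10660.9, 9560 and 9030 in control spleens and 5983.4, 7668.5 and 7654.8 in garlic spleens, with no overlap and a log2 fold change of -0.46 (SE 0.11, adjusted p = 0.134 by limma). Btg2, an inhibitor of proliferation, had one of 0.35 (SE 0.15, adjusted p = 0.426). Cdkn1a, the p53 target that stops the cell cycle, was named after its values were seen, at 197.7, 335 and 251.5 in control spleens and 267.3, 378.9 and 424.9 in garlic spleens. The groups overlapped, and the log2 fold change of Cdkn1a was 0.46 (SE 0.23, adjusted p = 0.519 by limma), the highest of the list.

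Of 16 S phase genes tested, 2 rose past the adjusted threshold and 0 fell, unadjusted p-values under 0.05 were found for 11 genes, all higher, and the median log2 fold change was 0.37. Ccne1, the cyclin that starts S phase, rose by 1.01 on the log2 scale (SE 0.14, adjusted p = 0.0281 by limma) and Ccna2, cyclin A2 of S and G2 phase, by 0.77 (SE 0.10, adjusted p = 0.0227). The study names both cyclins for these arrays, among genes above 1.8-fold, so their direction is not independent evidence. With the probe sets used here, Ccne1 was 2.01-fold higher and Ccna2 1.71-fold, the latter under that cutoff.

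**Figure D4:**
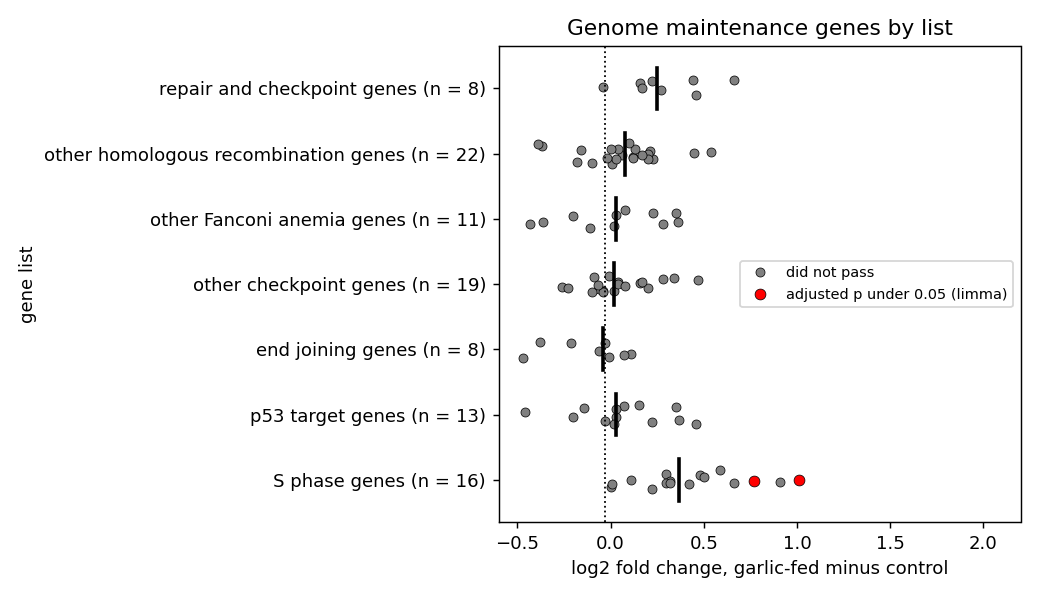
Log2 fold change of each tested gene, garlic-fed minus control, for the repair and checkpoint genes and 6 other lists; black bars are list medians, red points passed an adjusted p under 0.05 in limma, and the dotted line is the median over all genes tested at -0.03. The repair and checkpoint genes have a median of 0.25, the S phase genes one of 0.37, and the other 5 lists lie between -0.04 and 0.08.

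The genes whose signals followed the mean of the 8 genes most closely over the 6 mice were Tor1aip2 (Pearson r = 0.996), Ankle1 (0.995), Cdca8 (0.995), Tbc1d24 (0.995) and Anln (0.993). Their log2 fold changes were 0.19, 0.74, 0.43, 0.22 and 0.70 in that order. Over 6 mice in 2 diet groups, 460 of 12254 genes compared had an r above 0.9, so that the order of these genes is a description only. Between the 8 genes themselves r had a median of 0.43 over 28 pairs and a range of -0.36 to 0.98 over the same 6 arrays.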

How the data were processed

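Spleen RNA of 6 mice, 3 for each diet, was measured on 1 Affymetrix array per mouse. The values are intensity values, MAS5 signals on a linear scale, as deposited by the authors; the submitters' processing notes name MAS5, whose version is not given in the sources used here. Each array has a trimmed mean of 500, with 2% left out at each end, as read from the values. After 64 control probe sets were left out, 45037 remained, and 34945 were annotated to 1 gene. Signals under 23.5, the 20th percentile, were raised to it and put on the log2 scale. Testing covered 27022 probe sets whose mean exceeded 6.08 (log2; 40th percentile) with limma 3.58.1 in R 4.3.3 (trend of variance on signal, Benjamini-Hochberg). A gene was represented by its brightest probe set.

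The 9 genes and all lists were chosen with earlier results of these data known. Of 173 listed genes, 13 were found under no probe set and were not analysed here. The rule for naming took the 9 genes, from each list up to 3 genes past the adjusted threshold (filled to 2 with the brightest; most for cell type lists are not printed), and the 5 genes most like the mean of the 8. Motifs were searched in RefSeq promoters. The labels do not say whether mice shared a cage. The number of arrays limits the precision. Alternatives were other scalings, floors and filters, no trend, one-way ANOVA (named by the study), a replicate block, probe set means and leaving out arrays. The fit was tested on simulated data, in which it recovered 20.3% of log2 changes of 0.5 and 64.9% of log2 changes of 1. Of 131 calls there, 12 were false. Most changes of the size seen in the 9 genes could thus be missed. The qPCR of the study was not analysed here. The genes of the other homologous recombination list with an unadjusted p under 0.05, 1 higher and 1 lower, are counted, but their values are not reported here.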

Additional observations from a re-analysis of the deposited data

How the results depend on the processing

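No gene of the 9 passed the adjusted threshold in limma or ANOVA under any of the 18 alternatives run, with adjusted p-values of Brca1 between 0.0519 and 0.671. Filters, floors, the trend, ANOVA and the block left the log2 fold changes of the 8 genes as they were. With other scalings, probe set means and arrays left out, those of Brca1 (0.54 to 0.76), Rad54l (0.36 to 0.56), Blm, Exo1, Brca2 and Chek1 stayed positive. Fanca was 0.04 with each array centred on its median, and Fancd2 was -0.02 without control mouse 2 and 0.40 without control mouse 3. Brca1 had an unadjusted p under 0.05 in all 18 and Rad54l in 17, the exception being the fit with the most pancreatic array of each group removed, which left 1 gene and 2 probe sets at an unadjusted p under 0.05. Probe sets higher at an unadjusted p under 0.05, 4 of 16 as reported, were 2 with a filter at the 60th percentile, which removes dim probe sets, and 2 with ANOVA on log2 or linear signals. They were 5 with each array centred on its median. Genes higher at this threshold, 2 as reported, were 3 with that centring and 3 with no filter. Leaving out single arrays gave 2 (control mouse 2 or garlic-fed mouse 3) to 7 (garlic-fed mouse 1) probe sets, 2 to 4 genes, a median of the 8 genes of 0.15 to 0.37, and 0 to 1 probe sets by the study's criterion, the 1 without control mouse 3. That criterion also took 1 dim probe set, of Chek1, with no filter. With each array centred on its median, which raised log2 fold changes by 0.08, medians were 0.16 for other homologous recombination genes, 0.11 for other Fanconi anemia genes, 0.10 for other checkpoint genes and 0.11 for p53 targets; with a filter at the 60th percentile that of other Fanconi anemia genes was 0.23. Without single arrays the medians ran from 0.35 to 0.53 for S phase genes, -0.16 to 0.09 for end joining genes, -0.06 to 0.04 for other checkpoint genes, -0.03 to 0.09 for other Fanconi anemia genes, 0 to 0.07 for p53 targets, and 0.02 to 0.12 for other homologous recombination genes. The cause of these shifts was not tested.

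The replicate numbers of the labels were not used to pair the mice. Deviations of same-numbered mice had correlations of 0.001, -0.176 and 0.078, and those of differently numbered mice ran from -0.154 to 0.159. With so few mice these values cannot show whether the mice were paired. With the replicate number as a block, 3 genes and 5 probe sets were higher at an unadjusted p under 0.05, 0 passed after adjustment, and the adjusted p of Brca1 was 0.0519 from limma. The third gene was Exo1 (unadjusted p = 0.0406, limma fit across all probe sets). In this balanced design the block cannot move a log2 fold change.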
